A study of Mus musculus with 3 samples.

Results

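MiR-125a and miR-125b are microRNAs (miRNAs), short RNAs that guide the silencing of messenger RNAs with matching sites. Their 5 mature forms were taken by name from the 1915 miRNAs listed for developing mouse retina by a rule that uses no measured value, with earlier results of these data known. They are mmu-miR-125b-5p, mmu-miR-125b-1-3p, mmu-miR-125b-2-3p, mmu-miR-125a-5p and mmu-miR-125a-3p, written without the species prefix below. From postnatal day 1 (P1) to P17 miR-125b-5p was 1.49-fold higher as a share of miRNA reads, while miR-125a-5p was 1.40-fold lower but turned higher with scalings that centre the typical miRNA. The 3p strands of the miR-125b loci moved in opposite directions under each scaling tried. As a share of reads, miR-125b-1-3p was 3.82-fold lower at P17 and miR-125b-2-3p 2.93-fold higher, of which only the latter stayed over 2-fold with size factors or TMM factors.

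MiR-125 is the vertebrate counterpart of lin-4, a regulator of developmental timing in worms. A hairpin RNA is cut into a 5p and a 3p strand. One strand, here mainly 5p, is kept as the guide in Argonaute proteins, and the other, the passenger, is mostly degraded. The guide recognises targets chiefly through its seed, bases 2 to 8, and Lin28 messenger RNAs are well-known targets of both miR-125 and let-7. In the retina, miR-125, let-7 and miR-9 are known as miRNAs of late progenitors, the dividing cells that give the later-born cell types, and miR-125b is also known from Müller glia.

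Retinas came from C57BL/6J mice (C57BL/6 in the labels) at P1, P7 and P17, an interval in which the last retinal cells are born and photoreceptors mature. The labels name no mutant allele and no treatment for any age. The retinas of 5 eyes were pooled for each library and there was 1 library per age, so differences between ages lack a replicate check and carry no p-value. Each value below is a share of the miRNA reads of a whole tissue. Fewer cells that make a miRNA and less of it per cell cannot be told apart, and age cannot be told apart from library preparation.

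The libraries held 11426320 (P1), 12759995 (P7) and 11659722 (P17) miRNA reads. Levels are reads per 1000000 miRNA reads of the library (RPM), so that 1 read was worth 0.0784 to 0.0875 RPM. Sets of 3 values are in the order P1, P7, P17. Intervals are 95% intervals and cover counting error only, since each age has 1 library. Reads made by PCR are not independent molecules, so the intervals may be too narrow even for that error. Markers of the labelled tissue were abundant at each age. The photoreceptor miRNAs miR-182-5p, miR-183-5p and miR-96-5p together took 7.79%, 30.4% and 30.1% of the miRNA reads. Since RPM values are shares of a fixed total, ratios within a library, which do not depend on any scaling, are given beside the RPM values. Besides RPM, 4 other scalings were tried. Size factors from the median of ratios and TMM factors bring the change of the typical miRNA near 0, and the others leave either the most abundant miRNAs or the strands of miR-182, miR-183 and miR-96 out of the library total.

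The mature sequences, from the RefSeq tables for GRCm38.p6, are printed 5′ to 3′ to show which forms share a seed and which 3p strands tell the loci apart. The seed is in capitals.
miR-125b-5p: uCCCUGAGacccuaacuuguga
miR-125a-5p: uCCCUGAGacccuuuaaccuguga
miR-125b-1-3p: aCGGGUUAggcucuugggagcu
miR-125b-2-3p: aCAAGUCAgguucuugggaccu
miR-125a-3p: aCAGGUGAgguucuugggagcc
The 5p strands of miR-125a and miR-125b begin with the same 13 bases, so they share their seed, and then diverge. The seeds of the 3p strands differ from each other and from that of the 5p strands, and no other listed miRNA with a RefSeq sequence has any of these 3 seeds. Counted from the 5′ end of miR-125b-1-3p, miR-125b-2-3p differs from it at 5 of 22 positions, as G3A, G4A, U7C, C11U and G20C.

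There are 3 loci, each with a relative of miR-99 and of let-7 upstream on the same strand. Mir125b-1 (ENSMUSG00000093354) is at chr9:41581926-41582002 on the plus strand of GRCm38, in introns of the non-coding genes 3110039I08Rik and Gm49317 and inside exon 1 of the sense-intronic RNA Gm28119. Mir125b-2 (ENSMUSG00000065472) is at chr16:77646273-77646343 on the plus strand, in an intron of the non-coding host Mir99ahg. Mir125a (ENSMUSG00000065479) is at chr17:17830812-17830879 on the plus strand, within the protein-coding gene Spaca6, where 47 of its 68 bases overlap exon 1 of a non-coding transcript. Mir125b-1 and Mir125b-2 encode the same 5p strand. Reads of miR-125b-5p therefore cannot be assigned to a locus, whereas miR-125b-1-3p and miR-125b-2-3p each come from only 1 locus.

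The 5p strands, which carry the shared seed, were the abundant forms. MiR-125b-5p had 40858, 34906 and 62054 reads. These are 3576 RPM (3541 to 3611), 2736 RPM (2707 to 2764) and 5322 RPM (5280 to 5364), by Wilson intervals. The P17 library was thus the highest and the P7 library the lowest, with no overlap of the counting intervals. Among all listed miRNAs it took places 37, 35 and 24 by abundance. Its RPM ratio, without a pseudocount, was 1.31-fold lower at P7 than at P1 (a direction that turned with each other scaling), 1.95-fold higher at P17 than at P7 and 1.49-fold higher at P17 than at P1.

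MiR-125a-5p had 29578, 19620 and 21610 reads. Its levels were 2589 RPM (2559 to 2618), 1538 RPM (1516 to 1559) and 1853 RPM (1829 to 1878). P1 was the highest library and P7 again the lowest. The ratio of RPM was 1.21-fold higher at P17 than at P7. It was 1.68-fold lower at P7 and 1.40-fold lower at P17 than at P1, and both of these turned to higher with size factors or TMM factors. Its place by abundance stayed between 47 and 50.

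The 3p strands were rarer. By RPM miR-125b-1-3p and miR-125a-3p were lower at each step, by unlike amounts, and miR-125b-2-3p was higher at each step. MiR-125b-1-3p, from chromosome 9, had 3493, 1358 and 933 reads, or 306 RPM (296 to 316), 106 RPM (101 to 112) and 80.0 RPM (75.0 to 85.3). It was highest at P1, and most of the difference lay between P1 and P7. MiR-125b-2-3p, from chromosome 16, had 493, 943 and 1472 reads, or 43.2 RPM (39.5 to 47.1), 73.9 RPM (69.3 to 78.8) and 126 RPM (120.0 to 133). It was lowest at P1 and highest at P17, so the order of these sister strands was reversed between P7 and P17. MiR-125a-3p, from chromosome 17, had 299, 187 and 68 reads, or 26.2 RPM (23.4 to 29.3), 14.7 RPM (12.7 to 16.9) and 5.83 RPM (4.60 to 7.39), and was the rarest form at each age.

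**Figure D1:**
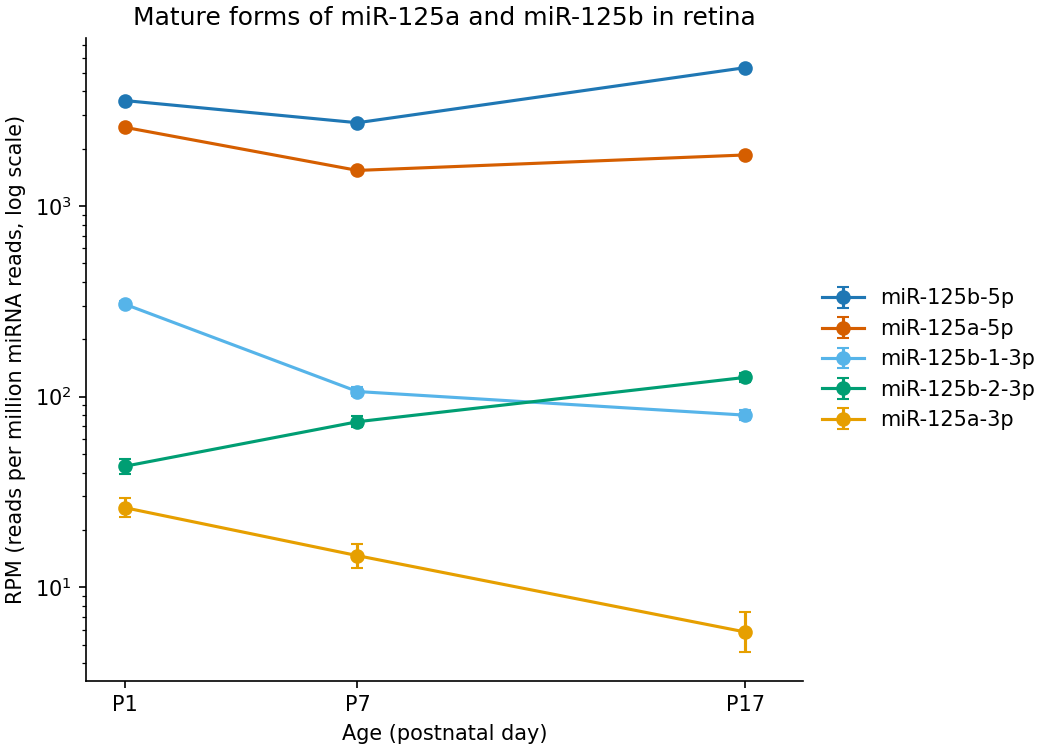
RPM of the 5 mature forms (log axis) against age in postnatal days, 1 library per age; bars are 95% Wilson intervals of counting error, smaller than most points. MiR-125b-5p goes from 3576 to 5322 RPM, and the lines of miR-125b-1-3p and miR-125b-2-3p cross between P7 (106 and 73.9 RPM) and P17 (80.0 and 126 RPM).

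Changes across all miRNAs were taken on the log2(RPM + 1) scale, among the 648 miRNAs whose levels averaged 1 RPM or more, and a miRNA was called when it changed over 2-fold. All 5 forms passed this filter. From P1 to P17, 2 of the 5 were called lower, against 46.8% of all filtered miRNAs, and 1 was called higher, against 10.5%. Over all filtered miRNAs these shares are 303 lower and 68 higher, against 155 and 165 with size factors from the median of ratios. The called forms were the 3p strands. The log2 change was -1.92 for miR-125b-1-3p, -1.99 for miR-125a-3p and 1.53 for miR-125b-2-3p, whereas miR-125b-5p (0.57) and miR-125a-5p (-0.48) were not called. Without a pseudocount the log2 ratios were -1.93 (exact binomial interval -2.04 to -1.83), -2.17 (-2.57 to -1.78), 1.55 (1.40 to 1.70), 0.57 (0.56 to 0.59) and -0.48 (-0.51 to -0.46), in the same order.

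The steps differed between the forms. From P1 to P7 only miR-125b-1-3p was called, as lower (-1.51), against 44.8% of all filtered miRNAs called lower and 3.09% called higher (290 and 20 miRNAs, against 73 and 62 with size factors). The other log2 changes over this step were 0.76 for miR-125b-2-3p, -0.39 for miR-125b-5p, -0.75 for miR-125a-5p and -0.79 for miR-125a-3p, of which the last 3 turned positive with size factors (0.57, 0.21 and 0.12). From P7 to P17 only miR-125a-3p was called, as lower (-1.20), against 11.6% called lower and 14% called higher. Over that step miR-125b-5p (0.96) and miR-125b-2-3p (0.76) had higher RPM values, miR-125a-5p a slightly higher one (0.27) and miR-125b-1-3p a lower one (-0.41).

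The median of all filtered miRNAs was itself -0.87 from P1 to P7, -0.05 from P7 to P17 and -0.91 from P1 to P17, and the median of the 5 forms was -0.75, 0.27 and -0.48. Relative to the median of all, the change from P1 to P17 was 2.44 for miR-125b-2-3p, 1.48 for miR-125b-5p, 0.43 for miR-125a-5p, -1.01 for miR-125b-1-3p and -1.08 for miR-125a-3p. Thus the 5p strands stood above the typical miRNA, although miR-125a-5p was lower in RPM. When these size factors were used instead, so that the typical miRNA lay near 0, the changes from P1 to P17 were 2.55, 1.62, 0.56, -0.88 and -1.03, in the same order, so miR-125a-5p turned from lower to higher, miR-125b-5p became called and miR-125b-1-3p was no longer called. From P1 to P7 miR-125b-5p was lower in RPM (-0.39) but higher under each of the 4 other scalings tried (0.02 to 0.60). Over that step the size factors left 0 forms called lower and 1, miR-125b-2-3p, called higher. The call of miR-125a-3p from P7 to P17 was lost with a pseudocount of 5 RPM, and miR-125b-5p was called higher over that step with size factors (1.04).

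**Figure D2:**
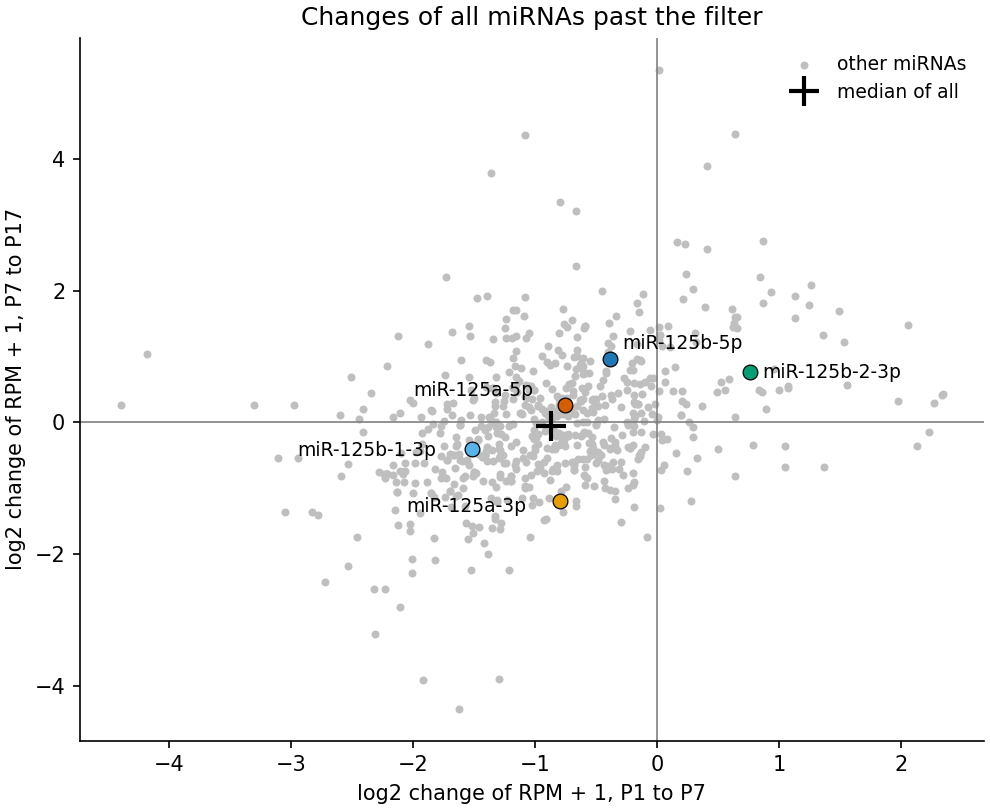
Log2 change of RPM + 1 from P1 to P7 (x axis) and from P7 to P17 (y axis) for the 648 filtered miRNAs (grey), with the 5 forms in colour and the median of all as a cross at -0.87 and -0.05. MiR-125b-2-3p has positive values on both axes (0.76 and 0.76), miR-125b-1-3p negative ones (-1.51 and -0.41), and miR-125b-5p lies at -0.39 and 0.96.

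**Figure D3:**
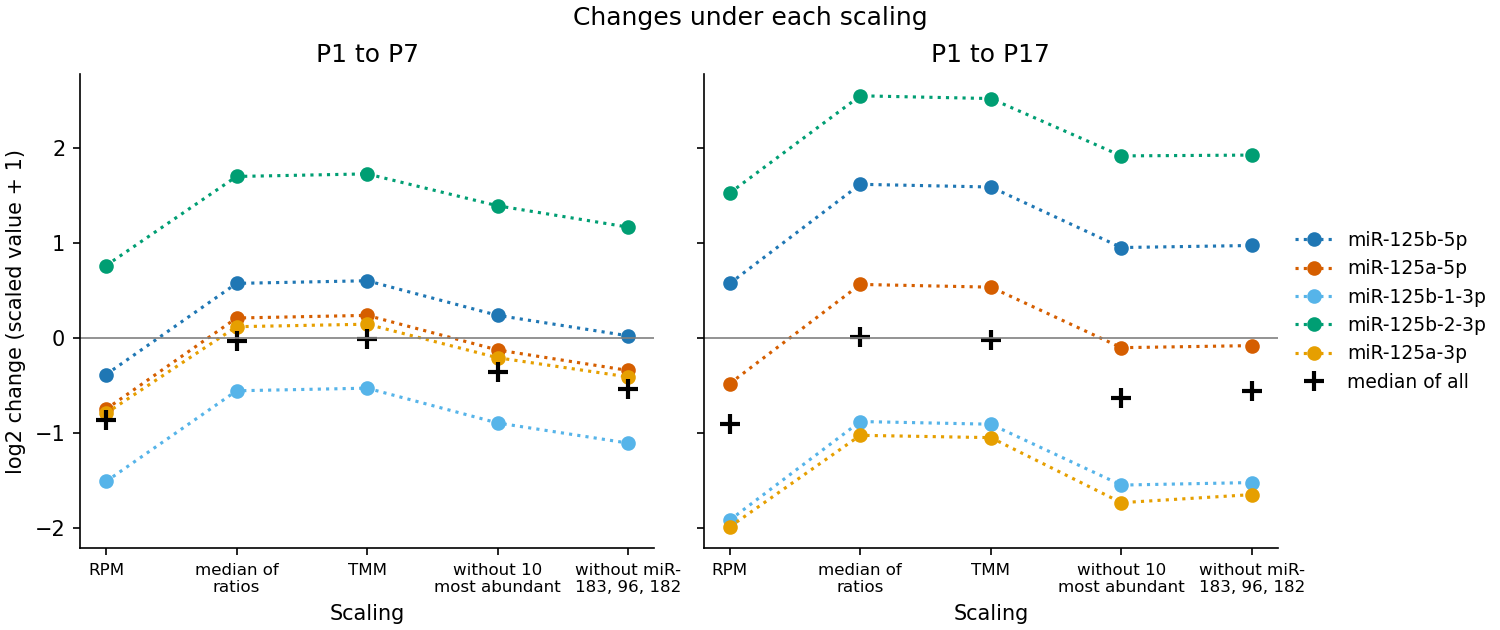
Log2 change of the 5 forms (coloured points) and the median of all filtered miRNAs (crosses) from P1 to P7 and from P1 to P17 under RPM and the 4 other scalings. The scalings shift all forms nearly alike, and miR-125a-5p from P1 to P17 lies at -0.48 with RPM, 0.56 with size factors and 0.53 with TMM factors.

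The ratio of the 5p strands does not depend on the scaling. Per read of miR-125a-5p there were 1.38 (1.36 to 1.40), 1.78 (1.75 to 1.81) and 2.87 (2.83 to 2.92) reads of miR-125b-5p. The log2 ratio was 0.37 higher at P7 than at P1 (0.33 to 0.40, conditional interval of the odds ratio) and 0.69 higher at P17 than at P7 (0.66 to 0.72), in all 1.06 (1.02 to 1.09). Of the reads of the 5 forms, miR-125b-5p took 54.7%, 61.2% and 72.0%, and miR-125a-5p 39.6%, 34.4% and 25.1%. Different miRNAs are ligated with different efficiency during library making, so the change of such a ratio between ages is better determined than its level.

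The balance between the 5p and 3p strands also moved toward 5p. For miR-125a there were 98.9 (88.3 to 111), 105 (90.8 to 122) and 318 (251 to 409) reads of the 5p strand per 3p read. The P1 and P7 intervals overlapped, and the log2 change between them was 0.08 (-0.18 to 0.36), whereas it was 1.60 from P7 to P17 (1.19 to 2.02). For miR-125b, with its 3p strands summed, the corresponding ratios were 10.3 (9.92 to 10.6), 15.2 (14.5 to 15.8) and 25.8 (24.8 to 26.9), with no overlap. The whole change from P1 to P17, in log2 of this ratio, was 1.68 for miR-125a (1.30 to 2.09) and 1.33 for miR-125b (1.26 to 1.41). Both exceeded 2-fold toward 5p, as did 19.5% of 190 hairpins with both strands past the filter, reads in every library and matching names, while 17.4% changed toward 3p. From P1 to P7 neither exceeded 2-fold (7.37% of the hairpins toward 5p, 6.32% toward 3p), and from P7 to P17 only miR-125a did (10% toward 5p, 13.2% toward 3p). The median log2 change over these hairpins from P1 to P17 was 0.16 and the middle 90% lay between -1.90 and 1.77, so both values were inside the general spread. From P7 to P17 the upper end of the middle 90% was 1.40. The 1.60 of miR-125a was above it, in place 7 of the 190, but its counting interval (1.19 to 2.02) includes 1.40.

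The sum of the miR-125b 3p strands hid a change in their makeup. MiR-125b-2-3p made up 12.4% (11.4 to 13.4), 41.0% (39.0 to 43.0) and 61.2% (59.2 to 63.2) of their reads. The share of the chromosome 16 strand thus increased at each step, and it was the larger only at P17. The log2 ratio of miR-125b-2-3p to miR-125b-1-3p changed by 2.30 from P1 to P7 (2.11 to 2.48) and by 1.18 from P7 to P17 (1.01 to 1.35), in all 3.48 (3.30 to 3.67). Such shifts were common: among 12 pairs of strands named by locus and past the filter, 33.3% changed over 2-fold in either direction from P1 to P7, 41.7% from P7 to P17 and 83.3% from P1 to P17, the last with a median absolute log2 change of 1.21. MiR-125b was in place 2 of the 12 by size, after miR-135a (3.92) and before miR-7a (-3.05). Set against the shared 5p strand, miR-125b-1-3p went from 1 read per 11.7 reads of miR-125b-5p at P1 to 1 per 66.5 at P17, and miR-125b-2-3p from 1 per 82.9 to 1 per 42.2. Which share of miR-125b-5p came from each locus was not measured.

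**Figure D4:**
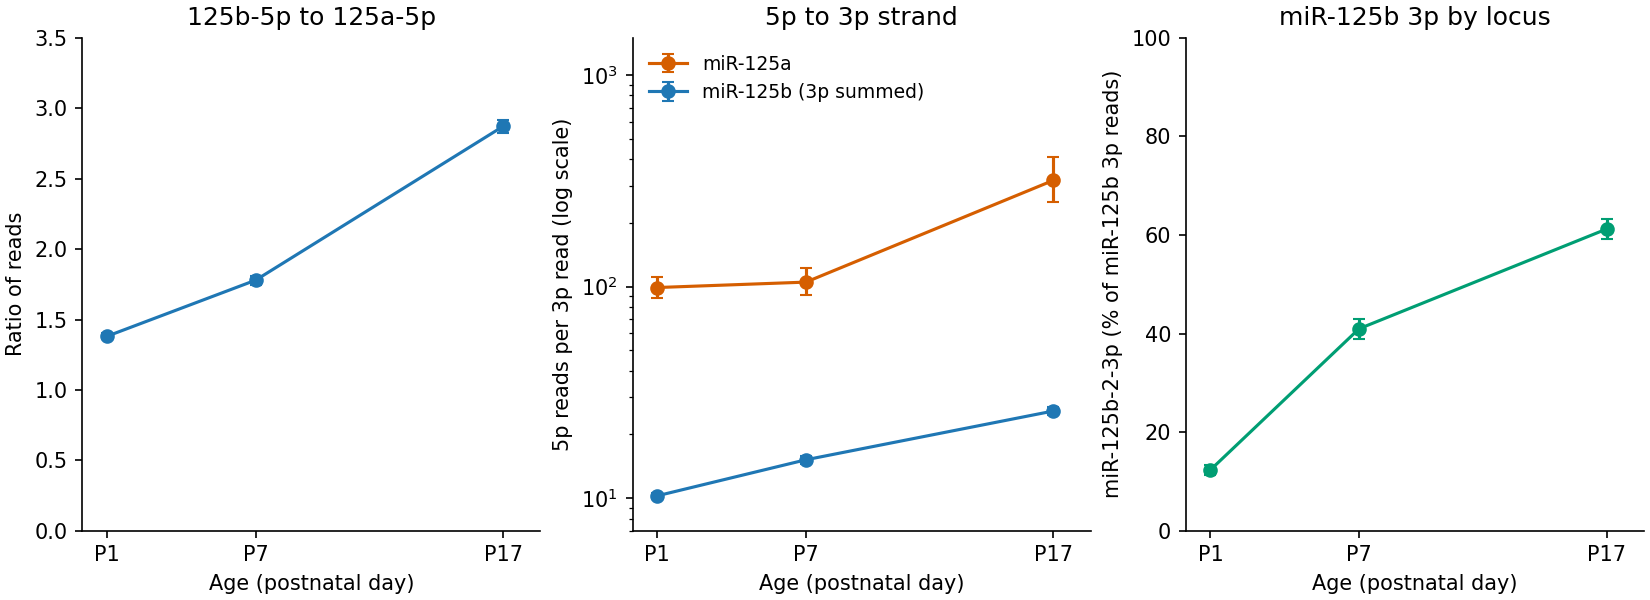
Ratios within each library against age in postnatal days, with 95% exact binomial intervals of counting error: miR-125b-5p per miR-125a-5p (left), 5p reads per 3p read on a log axis (middle), and miR-125b-2-3p as a percentage of the miR-125b 3p reads (right). The left ratio goes from 1.38 to 2.87, both strand ratios are highest at P17, and the share of miR-125b-2-3p goes from 12.4% to 61.2%.

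The neighbours in the same clusters were compared next, as miRNAs of a cluster can be cut from a common precursor. Of the 12 mature neighbours, 10 passed the filter. From P1 to P17, 3 of these were called lower and 4 higher, with a median log2 change of 0.22. Over all filtered miRNAs 46.8% were called lower and 10.5% higher, with a median of -0.91. The direction differed by locus. At the miR-125a locus, where Mir99b and Mirlet7e end 0.554 and 0.367 kb before Mir125a, all 4 neighbours were lower by RPM (3 of 4 with size or TMM factors) and 3 were called, whereas at the miR-125b-2 locus all 4 were higher and 3 were called. The latter hairpins are 47.3 kb (Mir99a) and 46.5 kb (Mirlet7c-1) from Mir125b-2. Under the 4 other scalings all 4 neighbours at the miR-125b-2 locus were called higher, while at the miR-125a locus 1 was called lower (miR-99b-3p). Over all 648 filtered miRNAs these scalings called 95 to 165 higher and 155 to 265 lower, against 68 and 303 with RPM. Let-7e-5p, like miR-125a-5p, turned higher with size factors (0.46) and TMM factors (0.44).

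At the miR-125a locus the guide strand of let-7e, a let-7 family member, ran closest to miR-125a-5p. Let-7e-5p had 1907, 1099 and 1274 RPM, and there were 1.36, 1.40 and 1.45 reads of miR-125a-5p per read of it. That ratio changed by only 0.10 on the log2 scale from P1 to P17 (0.06 to 0.14). MiR-99b-5p had 8650, 4622 and 3540 RPM, and miR-125a-5p gained on it by 0.81 (0.78 to 0.84). The strand ratio of 5p to 3p also changed toward 5p for these neighbours, by 0.98 for miR-99b (0.90 to 1.06) and 0.74 for let-7e (0.46 to 1.02). The 3p strands of miR-99b and let-7e changed by -2.26 and -1.26 on the log2(RPM + 1) scale, both called lower, beside -1.99 for miR-125a-3p.

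At the miR-125b-2 locus the neighbours, like miR-125b-2-3p, were higher at P17 than at P1, but not all kept a steady ratio to it. MiR-99a-5p had 10179, 21442 and 31477 RPM, and its log2 change of 1.63 was close to the 1.53 of miR-125b-2-3p. The ratio of miR-125b-2-3p to miR-99a-5p differed by -0.08 between P1 and P17 (-0.23 to 0.07), an interval that includes 0. Its steps were -0.30 from P1 to P7 (-0.46 to -0.14) and 0.22 from P7 to P17 (0.10 to 0.34). The passenger of miR-99a, miR-99a-3p, was called higher (1.10) on 14, 40 and 44 reads. Let-7c-5p rose by 1.05 on the log2 scale, but its sequence is also encoded by a locus elsewhere. MiR-125b-2-3p gained 0.50 on let-7c-5p from P1 to P17 (0.35 to 0.65). Let-7c-1-3p, which comes from this locus alone, had 47, 156 and 85 reads, and its change of 0.70 was not called. From P7 to P17 it was lower (-0.67) while miR-125b-2-3p was higher. The ratio of miR-125b-2-3p to let-7c-1-3p changed by -0.80 from P1 to P7 (-1.32 to -0.29). It then changed by 1.52 from P7 to P17 (1.11 to 1.93), in all 0.72 (0.16 to 1.28).

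At the miR-125b-1 locus the guide of the miR-99 relative did not follow miR-125b-1-3p. MiR-100-5p, from a hairpin 50.4 kb upstream, had 607, 647 and 1776 RPM, and was called higher from P1 to P17 (1.55). The ratio of miR-125b-1-3p to miR-100-5p fell by 3.48 on the log2 scale (-3.59 to -3.37), from 0.504 at P1 to 0.0451 at P17. MiR-125b-5p itself lost 0.97 against miR-100-5p over the same interval (-1.02 to -0.93). The ratio of miR-99a-5p, its counterpart at the miR-125b-2 locus, to miR-100-5p changed by 0.98 from P1 to P7 (0.94 to 1.03) and by -0.90 from P7 to P17 (-0.94 to -0.87), in all 0.08 (0.04 to 0.12). These guides thus ended near their starting ratio, whereas the miR-125b 3p strands shifted the same way in both steps. Let-7a-5p is counted here as a neighbour through the Mirlet7a-2 hairpin of this locus, while RefSeq lists it at Mirlet7a-1 on another chromosome. It had 23496, 15459 and 19752 RPM, and its reads cannot be assigned to a locus. The locus-specific passengers miR-100-3p (3, 7 and 12 reads) and let-7a-2-3p (5, 3 and 8 reads) were too rare to compare. MiR-100-5p and miR-99a-5p differ only at A16U, counted from the 5′ end of miR-100-5p, and miR-99a-5p had 16.8 to 33.2 times as many reads. How the counting split reads between such near-identical sequences is not given in the sources used here, so the level of miR-100-5p is uncertain. The same holds for let-7c-5p and let-7e-5p, which differ from the abundant let-7a-5p only at A19G and U9G, counted from its 5′ end, and for the ratios to them.
miR-100-5p: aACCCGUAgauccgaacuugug
miR-99a-5p: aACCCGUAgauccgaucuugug

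**Figure D5:**
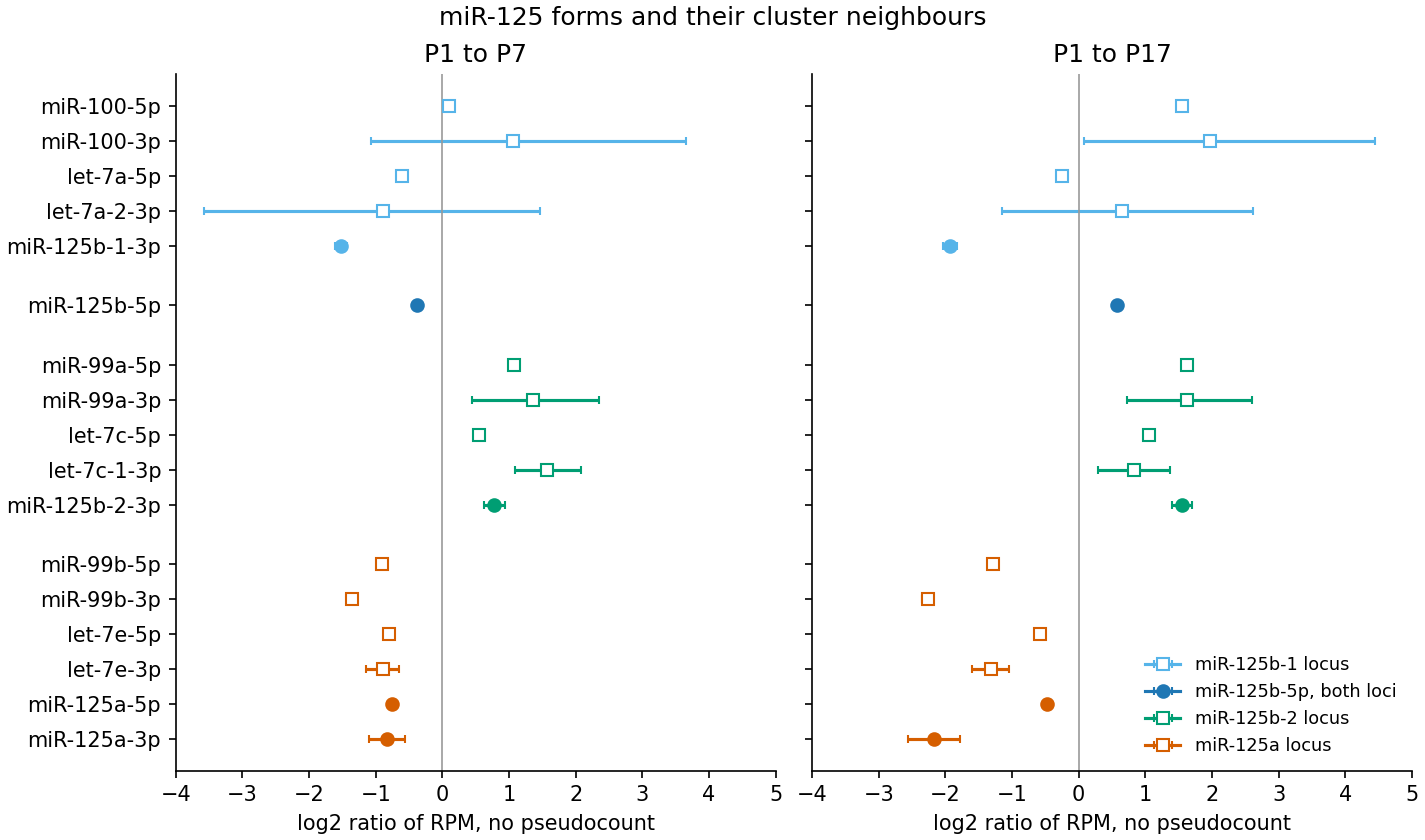
Log2 ratio of RPM, without a pseudocount, for miR-125 forms (filled circles) and their cluster neighbours (open squares), from P1 to P7 and from P1 to P17; bars are 95% exact binomial intervals of counting error. Forms of the miR-125b-2 locus are right of 0 in both panels, those of the miR-125a locus left of 0, and miR-125b-1-3p (-1.93 from P1 to P17) is left of its neighbour miR-100-5p (1.55); these are sides by RPM, and with size factors miR-125a-5p (0.56) and let-7e-5p (0.46), for example, turn positive from P1 to P17.

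Beyond these loci, 3 other listed miRNAs share the seed of miR-125 among those with a RefSeq sequence. MiR-6367 and miR-6394 had no read at any age, which allows up to 0.235 to 0.263 RPM at a floor of 3 reads and up to 0.301 to 0.336 RPM by the Wilson interval. MiR-351-5p, from a cluster on the X chromosome, had 161, 50.7 and 22.8 RPM, and its log2 change of -2.77 from P1 to P17 was called lower, as under the other scalings (-2.43 to -1.74). Its sequence departs from that of the miR-125 guides right after the seed.
miR-351-5p: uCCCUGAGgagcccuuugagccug
All reads with this seed together made up 6326, 4324 and 7198 RPM. MiR-125b-5p and miR-125a-5p supplied most of them, with 6164, 4273 and 7175 RPM.

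Among 9 guide strands known from late progenitors (8 of the let-7 family, of which let-7a, let-7c and let-7e are also cluster neighbours, and miR-9-5p), 1 was called lower from P1 to P17 and 2 higher, against 46.8% and 10.5% of all filtered miRNAs. The median log2 change was -0.20, between the values of miR-125b-5p (0.57) and miR-125a-5p (-0.48). The called miRNAs were let-7i-5p (-2.24), let-7b-5p (1.33) and let-7c-5p (1.05). MiR-9-5p changed by -0.96 and let-7f-5p by 0.61. By RPM 6 of the 9 were lower and 3 higher, whereas with size factors 1 was lower and 8 were higher, so the direction of the group depended on the scaling.

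The miRNAs with the most similar course were found by the Euclidean distance of the log2 changes at P7 and P17 from P1, over 200 other miRNAs averaging 100 RPM or more. With 3 libraries this rests on only 2 changes per miRNA and is a description. Nearest to miR-125b-5p were miR-26b-5p (distance 0.19), miR-592-5p (0.20), miR-127-5p (0.21), miR-344-3p (0.22) and miR-487b-3p (0.25). MiR-26b-5p had 3117, 2716 and 4732 RPM. Nearest to miR-125a-5p were miR-381-3p (0.10), the cluster neighbour let-7e-5p (0.11), miR-382-3p (0.14), miR-434-3p (0.15) and miR-30a-3p (0.19). When the search took in all miRNAs averaging 10 RPM or more, 3 of the 5 nearest to miR-125b-5p and 1 of the 5 nearest to miR-125a-5p remained among the nearest.

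Markers of other cell types were summed over the same ages, by RPM. The neuronal miRNAs miR-124-3p and miR-9-5p (2 of 2 with reads at each age) had 145803, 127817 and 86788 RPM, most of it miR-9-5p. From P1 to P17 miR-124-3p was called higher (3.05), whereas miR-9-5p was not called (-0.96). The summed endothelial miR-126a strands (2 of 2 with reads at each age) had 1261, 3643 and 8530 RPM, and the mural-cell miRNAs miR-143-3p and miR-145a-5p (2 of 2) had 195, 376 and 1492 RPM. The lens and cornea miRNAs miR-184-3p and miR-205-5p (2 of 2) had 103, 119 and 570 RPM, nearly all of it miR-184-3p, while miR-205-5p was called lower (-1.13) on 31, 4 and 8 reads. MiR-204-5p and miR-211-5p, of pigment epithelium and Müller glia (2 of 2), had 15211, 7226 and 14334 RPM in sum, but from P1 to P17 miR-204-5p was not called (-0.70) and miR-211-5p was called higher (3.27). Red blood cell miRNAs (2 of 2) had 46.6, 12.9 and 32.3 RPM in sum, where miR-451a was not called (-0.69) and the rarer miR-144-3p was called higher (1.35). The miRNAs of leukocytes and microglia (3 of 3) had 13.0, 15.9 and 18.1 RPM. The part of these cell types in the miR-125 values was not tested.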

How the data were processed

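Small RNA libraries were made from total RNA of pooled mouse retinas, 1 per age. According to the study's methods, adaptors and low-quality reads were removed from 50-nt reads, which were aligned to mm10 with HISAT2. The submitters' processing notes name FastQC and BWA instead, and the counting rule is not given in the sources used here. Per the file headers, the authors deposited a read count for each mature miRNA and its RPM. The deposited RPM equalled 1000000 times the count over the total of listed miRNA reads to within 0.0192 RPM.

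The deposited values were used without renormalization. The study called differential expression at over 2-fold with an adjusted p-value. With 1 library per age only the fold was used, on the log2(RPM + 1) scale, for miRNAs averaging 1 RPM or more over the libraries. Shares have Wilson intervals, ratios exact binomial intervals and changes of ratios conditional intervals of the odds ratio (fisher.test in R), all at 95%. The floor was 3 reads. Hairpin positions and host genes came from GENCODE M21 (GRCm38, the same coordinates as mm10), and mature sequences from RefSeq for GRCm38.p6. TMM factors were computed with edgeR 4.0.16 in R 4.3.3, and all else with scipy 1.17.1, pandas 2.3.3, numpy 2.4.6 and matplotlib 3.10.9 in Python 3.11.15. The fold calls and the intervals of the RPM ratios were tested on simulated counts for P1 and P17, drawn as independent reads without PCR copies. The ratios between strands, their intervals and the scalings were not tested in this way. Alternatives were the 4 other scalings, pseudocounts of 0.1 and 5 RPM, fold criteria of 1.5 and 4, and no filter or one of 10 RPM.

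The members, the lists and the alternatives were chosen with earlier results of these data known. Named miRNAs were the 5 forms, their cluster neighbours, miRNAs with the same seed, let-7 guides and miR-9-5p, the 5 miRNAs nearest in course to each 5p form, and the cell type markers. MiR-135a and miR-7a were named after their values were seen.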

Additional observations from a re-analysis of the deposited data

How the results depend on the processing

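The 4 ratio changes among the forms from P1 to P17 stayed within their counting intervals when taken on RPM + 1, and a pseudocount of 0.1 or 5 RPM moved only the change of miR-125a-3p beyond counting error among the changes from P1 to P17, to -1.53 with 5 RPM. Scaling moved more values. From P1 to P17, size factors from the median of ratios gave 1.62 for miR-125b-5p, -0.88 for miR-125b-1-3p, 2.55 for miR-125b-2-3p, 0.56 for miR-125a-5p, -1.03 for miR-125a-3p and 1.22 for the sum of the 5 forms (0.18 with RPM). TMM factors gave 1.59, -0.91, 2.52, 0.53, -1.05 and 1.19. When the 10 most abundant miRNAs of any library (13 in all) were left out of each total, the values were 0.95, -1.55, 1.92 and -0.10 for the first 4 and 0.55 for the sum, and they were 0.97, -1.52, 1.93, -0.081 and 0.58 when the strands of miR-182, miR-183 and miR-96 were left out. With size factors or TMM factors 1 form was called lower and 2 higher, against 2 and 1 with RPM, and with a fold criterion of 4 there were 0 and 0. Over all filtered miRNAs the numbers lower and higher were 303 and 68 with RPM, 155 and 165 with size factors, 157 and 163 with TMM factors, and 141 and 38 with a fold criterion of 4. From P1 to P7 they were 290 and 20 with RPM, against 68 to 185 lower and 39 to 63 higher under the 4 other scalings. From P7 to P17 they were 75 and 91, against 149 lower without the most abundant miRNAs. From P1 to P7, size factors and TMM factors made miR-125a-5p (0.21 and 0.24) and miR-125a-3p (0.12 and 0.14) higher. The cause of these shifts was not tested. Depth limits miR-125a-3p, with 68 reads at P17. No paired analysis was possible because there is only 1 library per age, and no library could be left out.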
